A study of Mus musculus with 8 samples.

Results

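The effect of removing SETDB1 while G9a and GLP were inhibited was described as the difference in A/B compartment score between Setdb1 KO + UNC and Setdb1 WT + UNC, per 100-kb bin of the autosomes. A bin was a member when it had a score other than 0 in both libraries, which held for 23990 of the 24005 bins scored in any of the 8 libraries of the series. No bin was chosen by the size of its change. Each side of the difference was 1 deposited set of Hi-C scores of mouse embryonic stem cells (mESCs), called a library below, so it carries no replicate error and no test.

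SETDB1, G9a, GLP, SUV39H1 and SUV39H2 are the methyltransferases that methylate lysine 9 of histone H3 (H3K9). SETDB1 is recruited by KRAB zinc finger proteins and TRIM28 and places trimethylation at endogenous retroviruses and at some gene clusters, whereas G9a and GLP act together and place most of the dimethylation. Hi-C counts how often pairs of loci are ligated to each other in fixed nuclei, and the first eigenvector of the contact map separates the chromatin into the active A compartment (scores above 0) and the inactive B compartment (scores below 0). The score has no physical unit, and a rise is a shift toward A.

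The 4 libraries of the Setdb1 line came from 1 conditional knockout line, in which 4-hydroxytamoxifen (4-OHT) deletes Setdb1. Setdb1 WT was untreated and Setdb1 WT + UNC received UNC0642, an inhibitor of G9a and GLP, at 2 µM for 3 days. Setdb1 KO received 4-OHT at 800 nM for 5 days, and Setdb1 KO + UNC received 4-OHT at 800 nM for 2 days followed by UNC0642 at 2 µM for 3 days. Where scores are listed below, WT, WT + UNC, KO and KO + UNC without a prefix are these 4 libraries. The labels give no 4-OHT for either WT library, so SETDB1 removal and the exposure to 4-OHT cannot be told apart. The other 4 libraries came from separate clones, Suv39h WT and Suv39h1/2 double knockout (Suv39h DKO) mESCs, each with and without UNC0642 at 2 µM for 3 days. All cells were grown in the same serum-reduced medium with LIF. The study made replicate Hi-C experiments and lists the reads of each, but the deposited scores hold 1 set of values per group with no read counts. Whether a set comes from 1 replicate or from a pool is not stated, so neither a depth per bin nor a spread between replicates could be computed from these files.

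The promoters of 6 genes are shown first because they come from the regions on which the results turn, with every CG dinucleotide in capitals. Each runs from 250 bases before to 50 bases after a gene start in the RefSeq annotation of GRCm38.p6, the assembly of the deposited mm10 bins, and is written 5′ to 3′ on the strand of the gene. Vmn1r189 (chr13:22102616-22102915, minus strand), a pheromone receptor, Ell2 (chr13:75707234-75707533, plus strand), a transcription elongation factor, and Csta1 (chr16:36131140-36131439, minus strand), a cysteine protease inhibitor of the stefin A cluster, lie in regions that rose both with and without UNC0642. Zfp712 (chr13:67061121-67061420, minus strand), a zinc finger gene, and Olfr832 (chr9:18944400-18944699, plus strand), an odorant receptor, lie in long rising runs, and Ube2ql1 (chr13:69739848-69740147, minus strand), an E2-like ubiquitin conjugating enzyme, lies in the longest falling run.
Vmn1r189: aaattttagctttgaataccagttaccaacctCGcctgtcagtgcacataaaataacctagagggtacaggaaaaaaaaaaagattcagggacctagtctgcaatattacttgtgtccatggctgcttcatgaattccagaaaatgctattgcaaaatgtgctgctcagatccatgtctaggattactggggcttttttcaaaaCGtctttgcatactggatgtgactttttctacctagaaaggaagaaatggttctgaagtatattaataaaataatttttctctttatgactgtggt
Csta1: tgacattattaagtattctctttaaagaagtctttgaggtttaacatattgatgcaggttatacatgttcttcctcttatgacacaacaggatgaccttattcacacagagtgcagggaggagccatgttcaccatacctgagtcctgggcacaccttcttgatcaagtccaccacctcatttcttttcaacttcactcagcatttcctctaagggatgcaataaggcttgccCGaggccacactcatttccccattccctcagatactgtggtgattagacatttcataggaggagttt
Olfr832: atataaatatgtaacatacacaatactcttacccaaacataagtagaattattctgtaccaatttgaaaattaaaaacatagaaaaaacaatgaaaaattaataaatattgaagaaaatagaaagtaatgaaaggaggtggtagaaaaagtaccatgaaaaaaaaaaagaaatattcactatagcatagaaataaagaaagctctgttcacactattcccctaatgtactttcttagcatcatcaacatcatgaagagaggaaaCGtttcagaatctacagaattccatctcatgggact
Zfp712: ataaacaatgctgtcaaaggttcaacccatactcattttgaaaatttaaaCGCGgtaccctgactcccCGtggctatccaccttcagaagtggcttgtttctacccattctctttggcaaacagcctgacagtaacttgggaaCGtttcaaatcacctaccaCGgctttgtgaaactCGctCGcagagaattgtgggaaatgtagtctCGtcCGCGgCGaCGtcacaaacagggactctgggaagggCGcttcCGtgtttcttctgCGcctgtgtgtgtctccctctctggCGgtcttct
Ell2: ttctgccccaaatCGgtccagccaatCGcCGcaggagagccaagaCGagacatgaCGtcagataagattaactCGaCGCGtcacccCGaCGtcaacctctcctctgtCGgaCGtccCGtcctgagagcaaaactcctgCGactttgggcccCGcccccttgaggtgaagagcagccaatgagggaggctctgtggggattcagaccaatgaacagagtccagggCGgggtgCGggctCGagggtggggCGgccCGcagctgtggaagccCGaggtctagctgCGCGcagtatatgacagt
Ube2ql1: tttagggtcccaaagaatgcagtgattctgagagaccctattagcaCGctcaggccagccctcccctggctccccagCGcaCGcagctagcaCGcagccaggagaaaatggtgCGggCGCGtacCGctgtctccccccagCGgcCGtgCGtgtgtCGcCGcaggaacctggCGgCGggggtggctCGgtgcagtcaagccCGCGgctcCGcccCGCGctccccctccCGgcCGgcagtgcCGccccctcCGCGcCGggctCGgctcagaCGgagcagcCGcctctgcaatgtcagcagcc

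The receptor and stefin promoters held 2 (Vmn1r189), 1 (Csta1) and 1 (Olfr832) CG dinucleotides, against 16 in Zfp712, 23 in Ell2 and 30 in Ube2ql1. Zfp712 was rich in CG for its cluster, where 21 Zfp promoters had a median of 8. CG reads the same on both strands, so 1 count covers both. Of 31320 autosomal promoters in scored bins (chromosome 18 not included), 44% held 10 or more CG. The share was 38.6% of 2173 promoters in rising bins, 28.6% of 1464 in falling bins and 16.9% of 142 in bins that rose in both SETDB1 pairs. All 17 Vmn1r promoters of the repeated run on chromosome 13 held fewer than 10, with a median of 1.

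The control library stood apart from its own line. In the 231 bins where the mean of the other Setdb1 libraries and the mean of the Suv39h libraries differed by at least 0.02, Setdb1 WT + UNC lay a median of 22.2% of the way from the Suv39h mean to the mean of its own line, and in 164 of them (71%) it was nearer to the Suv39h libraries. The same measure, each library set against the other libraries of both lines, gave 9.06% for Setdb1 WT, 1.79% for Setdb1 KO and 0.503% for Setdb1 KO + UNC, and 3.57% to 11% for the Suv39h libraries toward the Setdb1 line, with Setdb1 WT + UNC left out of every reference mean. Whether cells or files of both lines were exchanged or mixed in this library was not tested, since the files hold no reads. Results are therefore given beside Setdb1 KO minus Setdb1 WT, which shares no library with the difference. They are also given beside Setdb1 KO + UNC minus Setdb1 WT, which leaves out Setdb1 WT + UNC but shares Setdb1 KO + UNC with the difference.

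At Setdb1 itself (chr3:95323525-95357202, minus strand), the bin of the gene start scored 0.0485 in WT, 0.0439 in WT + UNC, 0.0422 in KO and 0.0467 in KO + UNC, and 0.048 to 0.0547 in the Suv39h libraries. All 8 values lay in the A compartment, and a score over 100 kb does not check the deletion. The defining markers of mESCs were in active chromatin: 18 of 18 marker bins were A in Setdb1 KO + UNC and 17 in Setdb1 WT + UNC, where the bin of Dppa4, a pluripotency-associated gene, scored -0.000449. Pou5f1, the core pluripotency factor, scored 0.0646 in the control and 0.0631 in Setdb1 KO + UNC. Compartment scores are not expression, so the labelled cell type was checked only to this extent.

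The compartment map was largely the same in both libraries, and a minority of bins differed in either direction. The scores of both libraries correlated at r = 0.967 across 23990 bins, which share chromosomes and neighbours, and the change had an SD of 0.00707 and a median of -0.000429. A change of at least 0.01 counted as a rise or a fall. Of all members 1718 rose (7.16%) and 1389 fell (5.79%), and at 0.02 the numbers were 321 and 94. The change ran from -0.0356 to 0.0586.

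Within the Setdb1 line, far fewer bins moved in the SETDB1 comparisons that leave out Setdb1 WT + UNC. Setdb1 KO minus Setdb1 WT gave 336 rising (1.4%) and 211 falling bins (0.88%) of 23987, and Setdb1 KO + UNC minus Setdb1 WT gave 351 (1.46%) and 283 (1.18%). The corresponding comparison in the other clones, Suv39h DKO + UNC minus Suv39h WT + UNC, gave 714 (2.98%) and 925 (3.86%). The untreated lines themselves, Suv39h WT minus Setdb1 WT, differed by at least 0.01 in 12% of bins, against 13% for the difference under UNC0642.

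Within the changing bins the libraries kept an order. Over the 1716 rising bins scored in all 8 libraries, the median score was 0.000985 in WT, -0.01 in WT + UNC, 0.00446 in KO and 0.00637 in KO + UNC, and -0.00603 to -0.00579 in the Suv39h libraries. Setdb1 WT + UNC was the lowest of the 4 Setdb1 libraries in 96.7% of these bins, and Setdb1 KO + UNC the highest in 69.1%. The median rise was 0.0138, with a median gap of 0.00977 from Setdb1 WT + UNC up to Setdb1 WT and of 0.00521 from Setdb1 WT up to Setdb1 KO + UNC. Over the 1388 falling bins the medians were 0.000446 in WT, 0.0099 in WT + UNC, -0.000958 in KO and -0.00436 in KO + UNC, with Setdb1 WT + UNC the highest of the 4 in 96.5% and Setdb1 KO + UNC the lowest in 75.1%. Because the same scores define the change, these shares are a description. Setdb1 WT + UNC was nearer to the Suv39h mean than to the mean of Setdb1 WT and Setdb1 KO in 84.8% of rising and 83.2% of falling bins, compared with 53.7% of all bins.

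Most bins kept their compartment. The sign was the same in both libraries for 93.7% of members (95% Wilson interval 93.3% to 94%, counting error only and too narrow because neighbouring bins are alike), whereas 753 bins that were B in Setdb1 WT + UNC were A in Setdb1 KO + UNC (B to A) and 767 were the reverse (A to B). Of the B to A bins, 450 (59.8%) were already A in Setdb1 WT, and 400 (53.1%) were A in both Setdb1 WT and Setdb1 KO. Of the A to B bins, 495 (64.5%) were already B in Setdb1 WT. A switch in the same direction from Setdb1 WT to Setdb1 KO was present in 141 of the B to A bins (18.7%) and 125 of the A to B bins (16.3%). Over all bins that were B in Setdb1 WT, that pair switched 3.08% to A, and over all that were A in it, 3.4% to B. These shares have another base, since the 450 and 495 bins already on the final side in Setdb1 WT could not switch this way. Many switches were small, since 42.1% of B to A and 60.6% of A to B bins moved by less than 0.01. The score in Setdb1 WT + UNC was within 0.005 of 0 in 49.5% of B to A and 64.9% of A to B bins.

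The same change without UNC0642 was then used to mark which differences recurred. Of the 1718 rising bins, 136 (7.92%) also rose by at least 0.01 from Setdb1 WT to Setdb1 KO, compared with 1.4% of all bins, and 12 fell by that much (0.698%, compared with 0.88% of all bins). Of the 1389 falling bins, 31 (2.23%) also fell, compared with 0.88% of all bins, and 19 rose (1.37%, compared with 1.4%). The other 1582 rising and 1358 falling bins were not repeated in the pair without UNC0642. The recurring share grew with the size of a rise: 5.08% of bins rising by 0.01 to 0.02, 18.4% of the 272 rising by 0.02 to 0.03 and 30.6% of the 49 rising by more. For falls of 0.01 to 0.02 it was 2.01%, and for falls of 0.02 to 0.03 it was 5.62% of 89 bins, while none of the 5 larger falls recurred (0%).

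**Figure D1:**
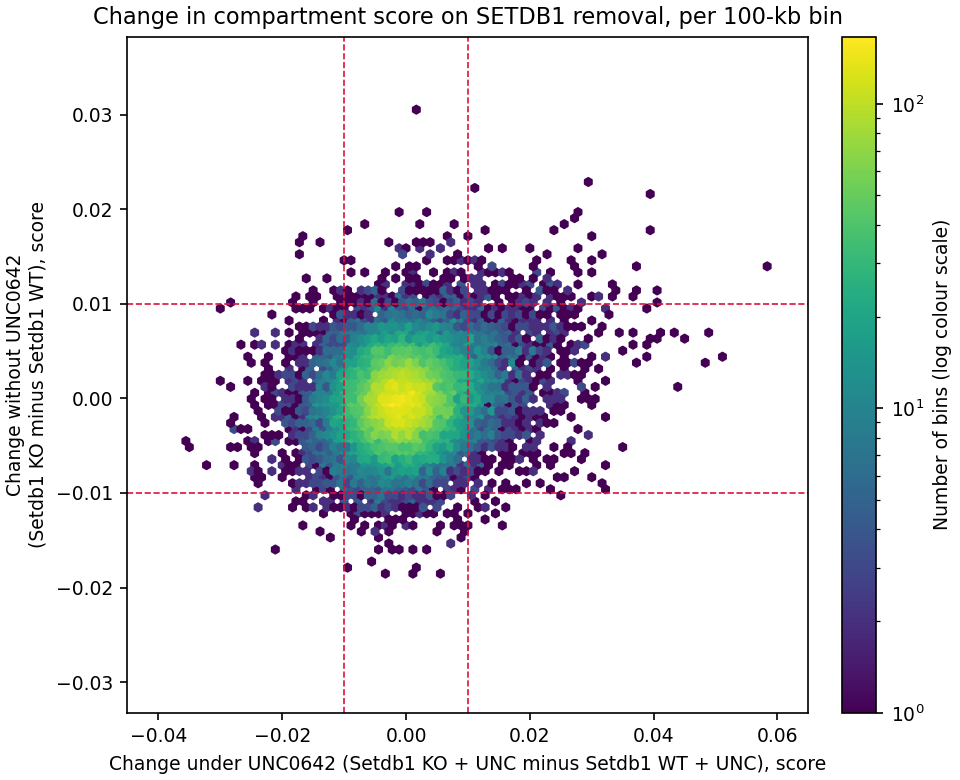
Change in compartment score per 100-kb bin under UNC0642 (x axis, Setdb1 KO + UNC minus Setdb1 WT + UNC) against the change without it (y axis, Setdb1 KO minus Setdb1 WT), coloured by the number of bins, with dashed lines at 0.01 either way. The spread is wider along x, and the upper right corner holds 136 bins against 31 in the lower left.

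Across 23972 bins the change under UNC0642 correlated with the change without it at r = 0.196, and this was above 0 on 19 of 19 autosomes. It correlated more with differences between the lines that share no library with it, at r = 0.355 with Setdb1 WT minus Suv39h WT and r = 0.487 with Setdb1 KO minus Suv39h DKO. These values describe neighbouring bins of the same genome and have no p. When each library was split into a running mean over 5.1 Mb (51 bins) and the remainder, the running mean held 24.8% of the variance of the change under UNC0642 and 6.48% without it. The broad parts of both changes correlated at r = 0.603 and the local parts at r = 0.128. Over these bins with the running mean removed, 1203 bins rose and 834 fell under UNC0642, of which 76 and 15 recurred without it.

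A test of SETDB1 loss needed both pairs together and was run with limma on all 8 libraries. No bin of 23972 passed an adjusted p of 0.05 (0 bins, 0%), and the lowest adjusted p was 0.274 by limma with Benjamini-Hochberg adjustment. At an unadjusted p under 0.05 limma counted 1237 bins higher and 945 lower after SETDB1 removal, together 9.1% of bins. The fit assumes that UNC0642 acted alike in all backgrounds. Setdb1 WT + UNC lay above Setdb1 WT by at least 0.01 in 842 bins and below it in 1108, and Setdb1 KO + UNC lay above Setdb1 KO in 181 and below it in 224. No rise or fall described here is a tested difference.

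Changing bins were unevenly spread over the autosomes. Chromosome 13 held 243 rising (20.7%) and 249 falling bins (21.2%) of 1174, which was 15.8% of all changing bins on 4.89% of the genome scored. Chromosomes 18 (13.1% rising and 12.9% falling), 9 (11.4% and 11.4%) and 19 (11% and 8.75%) followed, and chromosome 2 had the fewest (1.52% and 1.01%). On chromosome 13 the scores of Setdb1 WT + UNC correlated at 0.94 with Setdb1 WT and at 0.972 with Suv39h WT, while Setdb1 KO and Setdb1 KO + UNC correlated at 0.98 and 0.977 with Setdb1 WT. Setdb1 WT + UNC also correlated more with Suv39h WT on chromosomes 6, 8, 9 and 18. On all other autosomes it correlated more with Setdb1 WT, as on chromosome 1 (0.974 with Setdb1 WT and 0.939 with Suv39h WT). Without UNC0642 chromosome 13 also had the largest share of rising (4.94%) and falling bins (3.49%) of the 19 autosomes.

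**Figure D2:**
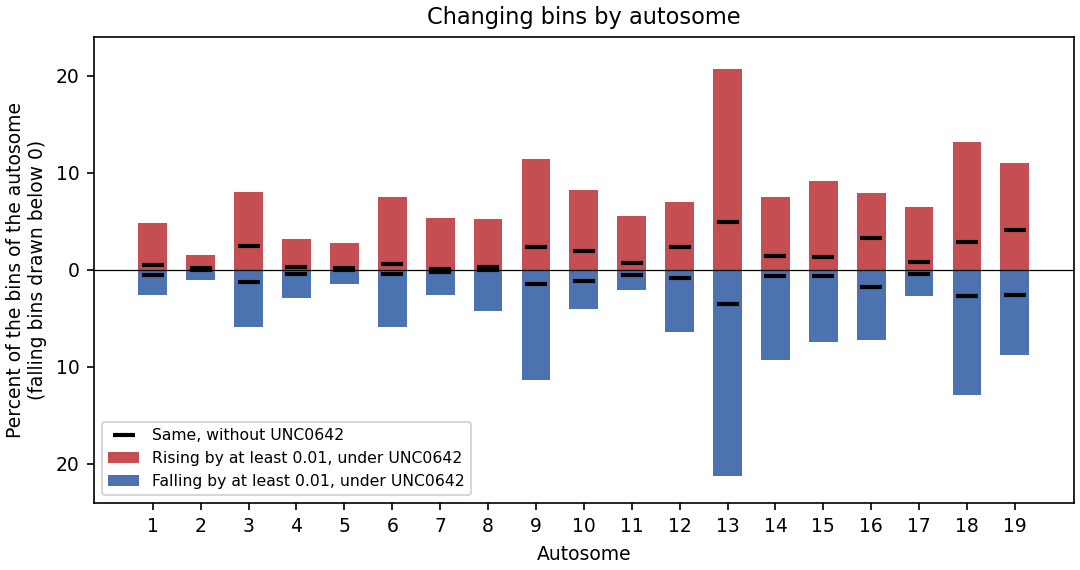
Percent of the bins of each autosome that rose (above 0) or fell (drawn below 0) by at least 0.01 under UNC0642 (bars) and without it (black marks). Chromosome 13 stands out in both pairs, and the shares without UNC0642 are lower on every autosome.

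Rises were concentrated toward the centromere, which lies at the start of every mouse autosome. In the first 10% of the length of the chromosomes 14.9% of bins rose and 2.87% fell, in the next 10% 13.5% and 3.13%, and in the last 10% 3.84% and 4.94%. The change correlated negatively with position on all 19 autosomes (r from -0.38 on chromosome 18 to -0.00173 on chromosome 16). Without chromosome 13 the first 10% still had 13.4% rising and 2.89% falling bins. Rising bins of the pair without UNC0642 had the same order at a lower level, with 3.62% rising in the first 10% of the length and 0.717% in the last, and with Setdb1 WT as the control the shares were 3.08% and 0.633%. Falling bins had the opposite order to that under UNC0642 in both of these comparisons, with 1.29% in the first 10% and 0.675% in the last without UNC0642, and 1.87% and 1.01% with Setdb1 WT as the control. The median change went from 0.00173 in the first 10% to -0.00196 in the last but one under UNC0642. Setdb1 WT minus Setdb1 WT + UNC, which involves no knockout and shares Setdb1 WT + UNC with it, had medians from 0.00179 to -0.00142.

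**Figure D3:**
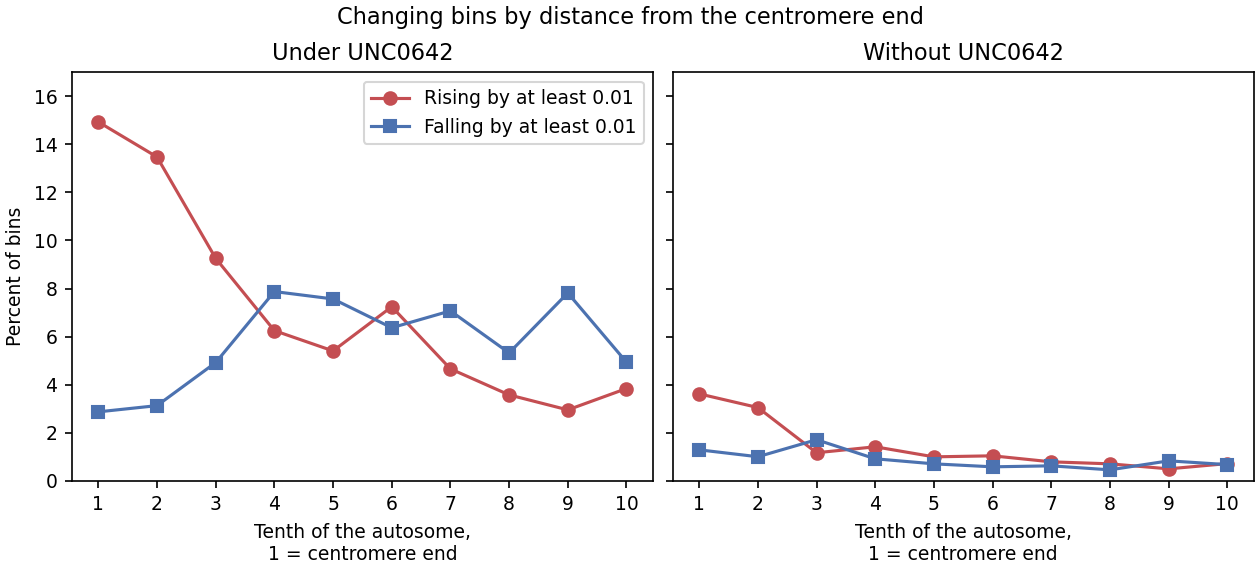
Percent of bins rising or falling by at least 0.01 in each 10% of the length of the autosomes, counted from the centromere end, under UNC0642 (left) and without it (right). Rising bins are most frequent in the first and second 10% of the length in both panels, 14.9% and 3.62% in the first.

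Rising and falling bins differed in sequence and gene content, which the selection of members had not used. Rising bins had a median GC content of 40.2% and 259 DpnII sites (GATC, the enzyme used for Hi-C) per bin, and falling bins 43.8% and 242, against 41.4% and 246 over all members. Rising bins held a mean of 0.997 protein-coding gene starts and falling bins 0.469, against 0.865 over all, and 69.1% of falling bins held none. The order held among bins that were A in Setdb1 WT, with a median GC content of 41.7% in rising and 45.4% in falling bins, and among B bins, with 38.9% and 42%. In the GC range from 38.2% to 40.3%, 18% of bins with a gene start rose and 1.09% fell. Among the bins of highest GC content, from 45.3%, 17.5% of bins without a gene start fell and 1.78% rose. The other bins of each range had the same direction. In the lower GC range 8.64% of bins without a gene start rose and 3.06% fell, and in the highest 5.22% of bins with one fell and 1.53% rose. The gene content turned in the pair without UNC0642. Its rising bins held a mean of 0.67 gene starts and its falling bins 0.825, the reverse order, with median GC contents of 41.2% and 42%. Of its bins of highest GC content without a gene start, 1.85% rose and 0.855% fell, again the reverse order, and of the bins with a gene start in the lower GC range 1.68% rose and 0.95% fell. Setdb1 KO + UNC minus Setdb1 WT, which shares Setdb1 KO + UNC with the difference, had the order found under UNC0642. Its rising bins held a mean of 0.815 gene starts at a median GC content of 40.3%, and its falling bins 0.611 at 42.5%. After GC content was removed from each library by a linear fit per chromosome, 1613 bins rose and 1246 fell under UNC0642. The part of cutting sites in the result was not tested.

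Changes were most frequent in bins of intermediate score. Ordered by Setdb1 WT, a library outside the difference, the 10% of bins nearest to 0 (scores -0.00526 to 0.00488) had 11.6% rising and 9.05% falling bins, against 2.13% and 2.71% in the lowest 10% and 5.38% and 3.38% in the highest. The corresponding 10% of bins when ordered by Suv39h WT had 9.13% rising and 9.17% falling bins.

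Changing bins often touched. There were 322 rising and 248 falling runs of at least 2 adjacent bins under UNC0642, the longest of 27 and 37 bins, against 24 and 5 runs without it, the longest of 6 and 3 bins. The 5 longest runs each way, the runs that recurred without UNC0642 and the single bins of largest change are described below as means over their bins. They were chosen by the change itself, so their values are a description.

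The longest rising runs lay over gene clusters of chromosomes 13 and 9. The first, chr13:3000001-5700000 (27 bins), begins with Gdi2, a regulator of Rab GTPases, and holds Fam208b, Asb13, the calmodulin-like genes Calml3, Calm4 and Calm5 and, further on, aldo-keto reductases that act on steroids (Akr1c genes). Its mean score was 0.0038 in WT, -0.0135 in WT + UNC, 0.00654 in KO and 0.00911 in KO + UNC, and -0.0082 to -0.00623 in the Suv39h libraries. Setdb1 WT + UNC was the only one of the 4 Setdb1 libraries in the B compartment, below all Suv39h values. The mean rise was 0.0226 (bins 0.0123 to 0.0406), against 0.00273 without UNC0642, where 5 of 27 bins rose by at least 0.01.

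The second run, chr13:21700001-23700000 (20 bins), covers 43 replication-dependent histone genes of the Hist1 cluster and 36 vomeronasal type 1 receptor genes, among 87 protein-coding genes that start with Olfr1359, Hist1h2bl, Hist1h2ai, Hist1h3h, Hist1h2bm and Hist1h4j. Its mean score was 0.0138 in WT, -0.00191 in WT + UNC, 0.0201 in KO and 0.0218 in KO + UNC, and -0.000031 to 0.00197 in the Suv39h libraries. Setdb1 WT + UNC was again the lowest, and the rise of 0.0237 compared with 0.00631 without UNC0642, where 8 of the 20 bins rose by at least 0.01.

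The third run and the last of the 5 hold clusters of zinc finger genes, a family with many KRAB members that recruit TRIM28 and SETDB1. At chr13:65900001-67900000 (20 bins, 23 Zfp genes of 39, with the phosphatidylserine synthase gene Ptdss1), the mean score was 0.00534 in WT, -0.0104 in WT + UNC, 0.00756 in KO and 0.0121 in KO + UNC, and -0.0106 to -0.00716 in the Suv39h libraries. The rise was 0.0225, and 0.00222 without UNC0642 with 1 bin past 0.01. At chr13:61600001-62900000 (13 bins), which holds Zfp808, Zfp935 and Zfp934 and ends at the gluconeogenic genes Fbp2 and Fbp1, the means were 0.0211 in WT, 0.00156 in WT + UNC, 0.0228 in KO and 0.0267 in KO + UNC, and -0.00386 to -0.00152 in the Suv39h libraries. Here the rise of 0.0251 did not recur, with 0.00171 and 0 bins past 0.01 without UNC0642, and Setdb1 WT, Setdb1 KO and Setdb1 KO + UNC lay close together.

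The fourth run, chr9:18900001-20600000 on chromosome 9 (17 bins), holds 33 olfactory receptor and 6 Zfp genes and begins with Olfr832, Olfr834, Olfr835, Olfr836, Olfr837 and Olfr839-ps1. Its mean score was -0.00492 in WT, -0.0201 in WT + UNC, 0.00086 in KO and -0.000379 in KO + UNC, and -0.0197 to -0.017 in the Suv39h libraries. It was B in Setdb1 WT and close to 0 in both knockout libraries. The rise was 0.0198 with UNC0642 and 0.00578 without it, 15 of 17 bins having the same sign in both pairs.

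The longest falling run, chr13:69700001-73400000 on chromosome 13 (37 bins), is a gene-poor region that holds Ube2ql1, the Mediator subunit Med10, the transcription elongation factor Ice1, the metalloprotease Adamts16 and the Iroquois homeobox genes Irx1 and Irx2, developmental regulators. Its mean score was -0.0136 in WT, 0.00217 in WT + UNC, -0.0172 in KO and -0.019 in KO + UNC, and -0.00284 to 0.00781 in the Suv39h libraries. The mean change was -0.0212, compared with -0.0036 without UNC0642, where 4 bins fell by at least 0.01 and 30 of 37 had the same sign. It was B in all Setdb1 libraries other than Setdb1 WT + UNC.

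Of the other falling runs, chr9:49100001-50200000 (11 bins), with the dopamine receptor gene Drd2 and the neural adhesion gene Ncam1 beside Tmprss5, Gm4894, Ankk1 and Ttc12, scored -0.00605 in WT, 0.00557 in WT + UNC, -0.0125 in KO and -0.00977 in KO + UNC, and 0.00678 to 0.0114 in the Suv39h libraries. Its change was -0.0153 with and -0.00646 without UNC0642, so that both knockout libraries lay below Setdb1 WT. The remaining 3 runs had small means of the opposite sign without UNC0642: chr13:39400001-40700000 (Ofcc1) changed by -0.0159 with and 0.00161 without UNC0642, chr13:45600001-46600000 (Atxn1, Stmnd1, Rbm24 and Cap2) by -0.0164 and 0.00209, and chr13:36200001-37100000 (Fars2, Nrn1 and F13a1) by -0.0177 and 0.000314. Their bins were divided, with 8 of 13, 4 of 10 and 4 of 9 having the same sign in both pairs. In these 3 the score of Setdb1 WT + UNC (-0.0115, 0.0301 and 0.000699) was the highest of the Setdb1 line, and Setdb1 WT (-0.0242, 0.0166 and -0.0116) and Setdb1 KO (-0.0225, 0.0187 and -0.0113) were close to each other.

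**Figure D4:**
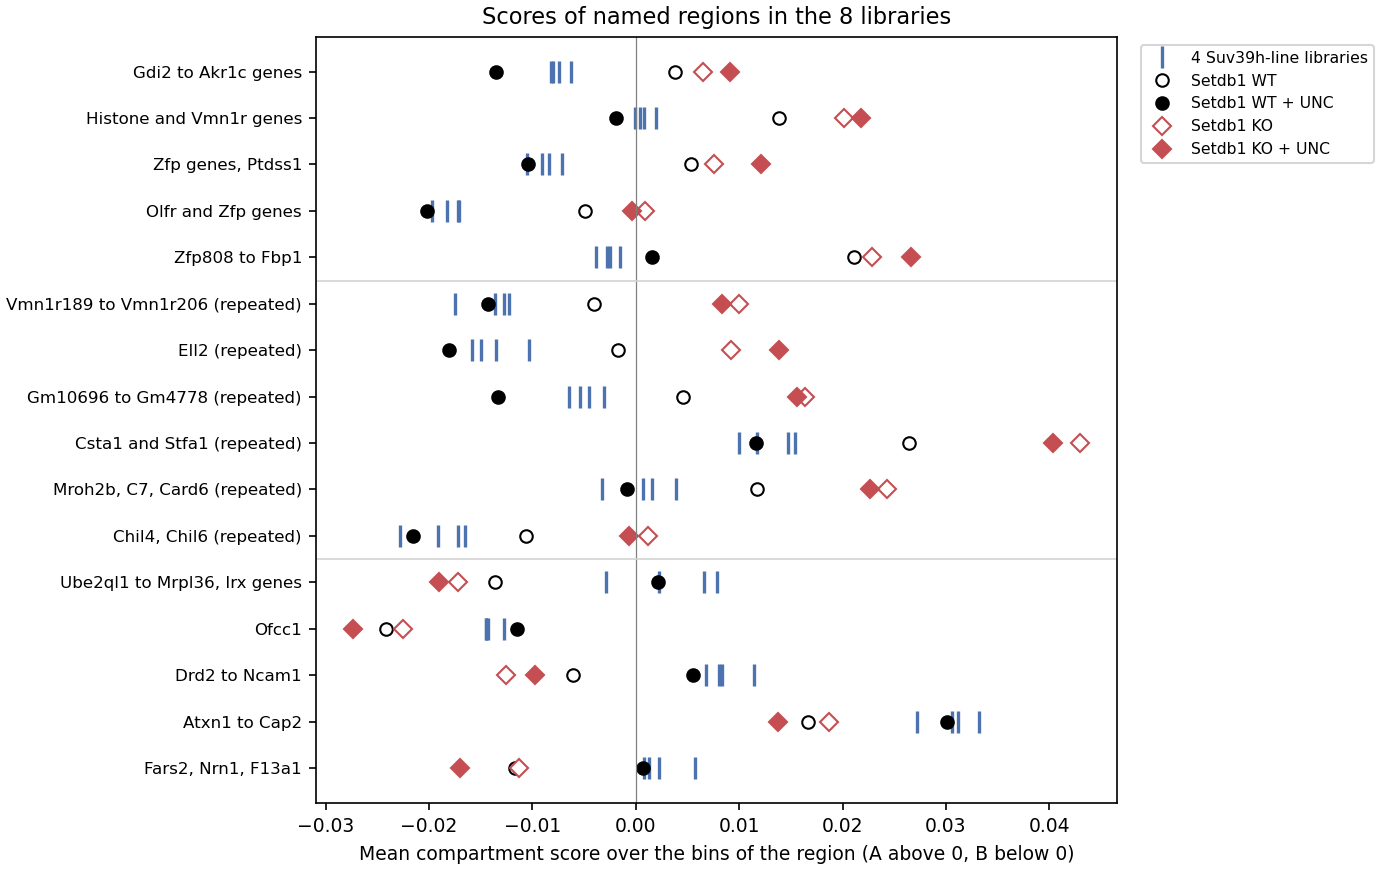
Mean compartment score of named regions in the 4 Setdb1 libraries (circles for WT, diamonds for KO, filled with UNC0642) and the 4 Suv39h libraries (blue ticks). The 5 longest rising runs are at the top, the first 6 recurring runs in the middle and the 5 longest falling runs at the bottom. Setdb1 WT + UNC lies nearer to the Suv39h libraries than to Setdb1 WT in every region shown. In the recurring runs both knockout libraries sit above Setdb1 WT, which for Setdb1 KO follows from the rule that chose these runs.

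The runs that rose both with and without UNC0642 were short, and the longest of the 10 lay over receptor genes. At chr13:22100001-22700000 (6 bins), all 17 protein-coding genes are vomeronasal type 1 receptors, which detect pheromones, beginning with Vmn1r189, Vmn1r191, Vmn1r192, Vmn1r193, Vmn1r194 and Vmn1r195. The mean score was -0.00405 in WT, -0.0143 in WT + UNC, 0.01 in KO and 0.00837 in KO + UNC, and -0.0175 to -0.0123 in the Suv39h libraries. Every one of the 6 bins was B in both WT libraries (-0.00739 to -0.00105 in Setdb1 WT and -0.02 to -0.00959 in Setdb1 WT + UNC) and A in both knockout libraries (0.0069 to 0.0177 and 0.00233 to 0.0177). The mean rise was 0.0227 with UNC0642 and 0.0141 without it, and 0.0124 from Setdb1 WT to Setdb1 KO + UNC. The promoter of Vmn1r189 printed above, with 2 CG, lies in the first of these bins.

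The bins around Ell2 (chr13:75600001-75800000, 2 bins) scored -0.00173 in WT, -0.0181 in WT + UNC, 0.00918 in KO and 0.0138 in KO + UNC, B in both WT libraries and A in both knockout libraries, with -0.0158 to -0.0103 in the Suv39h libraries. At Csta1, Stfa2l1, Gm5483, Gm5416, 2010005H15Rik and Stfa1, members or neighbours of the stefin A cluster of cysteine protease inhibitors (chr16:36100001-36300000, 2 bins), the scores were 0.0264 in WT, 0.0116 in WT + UNC, 0.043 in KO and 0.0404 in KO + UNC, A in all 4 and higher in both knockout libraries than in either WT library. The rises were 0.0319 with and 0.0109 without UNC0642 at Ell2, and 0.0288 and 0.0166 at the stefin A cluster.

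The other recurring runs had 2 bins each. chr3:94100001-94300000 (Gm10696, Gm5286 and Gm4778) scored 0.00457 in WT, -0.0133 in WT + UNC, 0.0164 in KO and 0.0156 in KO + UNC. chr15:4900001-5100000, with Mroh2b, the complement component C7 and Card6, rose by 0.0234 with and 0.0125 without UNC0642, and chr3:106200001-106400000, with the chitinase-like genes Chil4 and Chil6, by 0.0209 and 0.0118. chr10:7100001-7300000, at the signalling scaffold gene Cnksr3, rose by 0.012 and 0.0165. The other 3, chr11:28000001-28200000, chr10:35000001-35200000 and chr18:5800001-6000000, overlap no protein-coding gene and rose by 0.0136 to 0.0182 with UNC0642. Over all 136 recurring rising bins, 23 were on chromosome 13, and 17 autosomes held at least 1.

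No run of falling bins recurred, and the 31 falling bins that did so stood alone, 10 of them on chromosome 13. Of the 5 with the largest change, chr13:69200001-69300000, chr13:70100001-70200000 and chr13:72400001-72500000 hold no protein-coding gene and lie in or near the long falling run of the Irx genes. chr18:56900001-57000000 (March3 and C330018D20Rik) scored 0.0109 in WT, 0.0208 in WT + UNC, 0.00059 in KO and -0.00209 in KO + UNC, and chr15:66900001-67000000, with the matricellular protein gene Ccn4 and the stress-response gene Ndrg1, scored 0.00622 in WT, 0.0137 in WT + UNC, -0.00989 in KO and -0.00764 in KO + UNC. In the latter both WT libraries were A and both knockout libraries were B.

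The largest single rise in the genome recurred. At chr18:54300001-54400000, which overlaps no protein-coding gene, the score was -0.00402 in WT, -0.0366 in WT + UNC, 0.00979 in KO and 0.022 in KO + UNC, and -0.0352 to -0.0272 in the Suv39h libraries, a rise of 0.0586 with and 0.0138 without UNC0642. The next rises, chr18:74300001-74400000 (Cfap53, a cilia gene) with 0.0511 and chr18:4500001-4600000 with 0.0485, were 0.00417 and 0.00704 without it and are not counted as recurring. The largest falls were at chr13:57600001-57700000 (Spock1, a proteoglycan gene, -0.0356), chr13:72900001-73000000 (-0.0347) and chr13:70700001-70800000 (Adamts16, -0.0326), and without UNC0642 these bins changed by -0.00432, -0.00512 and -0.00711.

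Across the 31 named regions and bins, Setdb1 WT lay between both UNC0642 libraries in 31, and in 24 the step from Setdb1 WT + UNC to Setdb1 WT was larger than that from Setdb1 WT to Setdb1 KO + UNC. Among the 15 recurring ones the first step was the larger in 8, and among the 10 longest runs in 10. Setdb1 WT + UNC was nearer to the Suv39h mean than to its own line in 31 of 31, and Setdb1 KO + UNC in 0. The regions were chosen by the difference of the UNC0642 libraries, which favours such counts, so they are a description. Some regions also overlap. The recurring Vmn1r run lies in the run over the Hist1 cluster, and several single falling bins lie in the longest falling run. From Setdb1 WT to Setdb1 KO + UNC the longest rising runs differed by 0.00454 to 0.00792, the recurring rising runs by 0.00474 to 0.0156 and the longest falling runs by -0.00547 to -0.00286. All kept their direction with this control, which the choice of the runs favours, since Setdb1 KO + UNC is in both differences. All 10 longest runs fell short of 0.01. In the limma fit over both pairs, the adjusted p of the bins in these regions was 0.274 or above by limma with Benjamini-Hochberg adjustment.

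Gene lists were placed by the bin of each gene start. Of 20746 protein-coding genes in scored bins, 1713 lay in rising (8.26%) and 651 in falling bins (3.14%), and over their 10053 bins the median change was 0.000265 under UNC0642 and -0.00016 without it. Genes of 1 cluster share bins, so each list is counted over its bins, of which 844 rose (8.4%) and 429 fell (4.27%) over all genes. No list was tested.

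Clustered receptor families of the nose moved toward A in part of their bins. Among olfactory receptor genes, 57 rose and 1 fell by at least 0.01 of 333 bins (1128 genes), with a median change of 0.00248, against 0.000717 in the pair without UNC0642 and 0.00117 with Setdb1 WT as the control. Among vomeronasal type 1 receptors, 24 rose and 1 fell by at least 0.01 of 96 bins (201 genes), with a median change of 0.0036, against 0.00192 in the pair without UNC0642 and 0.00182 with Setdb1 WT as the control, and 9 of the rising bins recurred without UNC0642, among them the run on chromosome 13 described above. Over all genes 57 of 844 rising bins recurred, over olfactory receptors 6 of 57, over vomeronasal type 2 receptors 1 of 17 and over Zfp genes 2 of 57. Among lists described below, 0 of 5 recurred for Hist1h genes, 0 of 6 for secretoglobins and 1 of 11 for the cytochrome P450 family 2. For protocadherin clusters 0 of 4 recurred, and for the stefin A cluster 2 of 3. Among vomeronasal type 2 receptors, 17 rose and 2 fell by at least 0.01 of 95 bins (120 genes), with a median change of 0.00291, against 0.00127 in the pair without UNC0642 and 0.000996 with Setdb1 WT as the control. Olfr835 scored 0.0047 in WT, -0.0209 in WT + UNC, 0.00588 in KO and 0.00983 in KO + UNC, and Vmn1r202 scored -0.00739 in WT, -0.02 in WT + UNC, 0.00739 in KO and 0.00994 in KO + UNC. Olfr835 was thus above 0 in all Setdb1 libraries but Setdb1 WT + UNC, whereas Vmn1r202 was above 0 in the knockout libraries alone. Vmn2r96 scored -0.00536 in WT, -0.0211 in WT + UNC, 0.00515 in KO and 0.00736 in KO + UNC, the same order as Vmn1r202. For taste receptors of type 2, 0 rose and 0 fell by at least 0.01 of 14 bins (35 genes), with a median change of -0.000128, against -0.00114 in the pair without UNC0642 and -0.00244 with Setdb1 WT as the control.

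Zinc finger genes and the histone cluster held rising bins in the UNC0642 pair, with medians near 0 in the other. Among Zfp genes, 57 rose and 6 fell by at least 0.01 of 282 bins (383 genes), with a median change of 0.003, against 0.00003 in the pair without UNC0642 and 0.000825 with Setdb1 WT as the control. Zfp729b scored 0.0233 in WT, 0.00209 in WT + UNC, 0.0185 in KO and 0.0371 in KO + UNC, with a change of -0.00475 without UNC0642, and Zfp322a scored 0.0295 in WT, 0.00191 in WT + UNC, 0.0398 in KO and 0.0427 in KO + UNC, with 0.0103. Among Hist1h genes, 5 rose and 0 fell by at least 0.01 of 7 bins (54 genes), with a median change of 0.0207, against 0.00178 in the pair without UNC0642 and 0.00409 with Setdb1 WT as the control, and Hist1h2bq scored 0.0289 in WT, 0.00916 in WT + UNC, 0.0307 in KO and 0.0411 in KO + UNC. All 7 histone bins were A in both UNC0642 libraries.

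Among clusters of secreted and detoxifying proteins, the stefin A, secretoglobin and cytochrome P450 lists had 60%, 28.6% and 24.4% of bins rising. The serpin and defensin lists, at 7.69% and 9.09%, were near the share over all genes. For genes matched to the stefin A cluster, 3 rose and 0 fell by at least 0.01 of 5 bins (10 genes), with a median change of 0.016, against 0.0104 in the pair without UNC0642 and 0.01 with Setdb1 WT as the control. The symbol pattern also matched Cstad on chromosome 2, which is no stefin. For secretoglobins, 6 rose and 0 fell by at least 0.01 of 21 bins (34 genes), with a median change of 0.00548, against 0.00115 in the pair without UNC0642 and 0.00275 with Setdb1 WT as the control, and for the cytochrome P450 family 2, 11 rose and 0 fell by at least 0.01 of 45 bins (57 genes), with a median change of 0.007, against 0.00147 in the pair without UNC0642 and 0.00259 with Setdb1 WT as the control. Cyp2c37, a drug-metabolising enzyme gene, scored -0.0176 in WT, -0.0363 in WT + UNC, -0.00576 in KO and 0.000878 in KO + UNC, and Scgb2a2 scored 0.014 in WT, -0.000152 in WT + UNC, 0.0137 in KO and 0.0294 in KO + UNC. For serpins A and B, 2 rose and 0 fell by at least 0.01 of 26 bins (49 genes), with a median change of 0.00251, against 0.00272 in the pair without UNC0642 and -0.00044 with Setdb1 WT as the control. For defensins, 2 rose and 0 fell by at least 0.01 of 22 bins (64 genes), with a median change of 0.00457, against 0.0023 in the pair without UNC0642 and 0.00161 with Setdb1 WT as the control.

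Keratin genes were the list with the largest share of falling bins. Of their 36 bins 0 rose and 6 fell, with a median change of -0.00344, and the falls did not recur, with 0 falling bins and a median of 0.000039 without UNC0642. Krt5, a keratin of basal epithelium, scored 0.0114 in WT, 0.0267 in WT + UNC, 0.0137 in KO and 0.0108 in KO + UNC, so that Setdb1 WT + UNC was the high value. Long neuronal genes (1 of 22 bins falling, Rbfox1, an RNA-binding splicing regulator) and lineage regulators (2 of 28, at Neurog1, a proneural factor, and Runx1, a blood regulator) had medians of -0.000829 and -0.0014, and none of their bins rose.

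Genes active at the 2-cell stage of the embryo had rising and no falling bins. For this list, 8 rose and 0 fell by at least 0.01 of 21 bins (25 genes), with a median change of 0.00912, against 0.00129 in the pair without UNC0642 and 0.00344 with Setdb1 WT as the control. Tdpoz3, a member of a multicopy cluster, scored 0.0103 in WT, -0.0144 in WT + UNC, 0.0258 in KO and 0.0171 in KO + UNC, a rise of 0.0315 with and 0.0155 without UNC0642, and Zfp352, a zinc finger gene of the early embryo, scored -0.0181 in WT, -0.0294 in WT + UNC, -0.0067 in KO and -0.00745 in KO + UNC. Tdpoz3 was lowest in Setdb1 WT + UNC and highest in Setdb1 KO, and Zfp352 stayed in the B compartment throughout. Among germline genes 1 of 20 bins rose and 1 fell, at Rnf17 and Tdrd6, both of the germ cell piRNA pathway. Among protocadherin clusters, which encode neuronal adhesion proteins, 4 rose and 0 fell by at least 0.01 of 10 bins (57 genes), with a median change of 0.00663, against 0.00459 in the pair without UNC0642 and 0.0019 with Setdb1 WT as the control.

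The H3K9 methylation machinery stayed in the A compartment, with 21 of 21 bins above 0 in the control and 21 in Setdb1 KO + UNC. Of these, 1 rose, at Fam208a, a HUSH complex subunit, which scored 0.0412 in WT, 0.0315 in WT + UNC, 0.0417 in KO and 0.0429 in KO + UNC. The bins of Ehmt1 (GLP) and Ehmt2 (G9a), the targets of UNC0642, changed by 0.00459 and -0.00642. Hox clusters, ribosomal protein, imprinted and PRAME family genes had medians of 0.00407, 0.00081, 0.0024 and 0.000589, with 0, 7, 2 and 0 rising and 0, 2, 0 and 0 falling bins of 9, 85, 23 and 9.

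**Figure D5:**
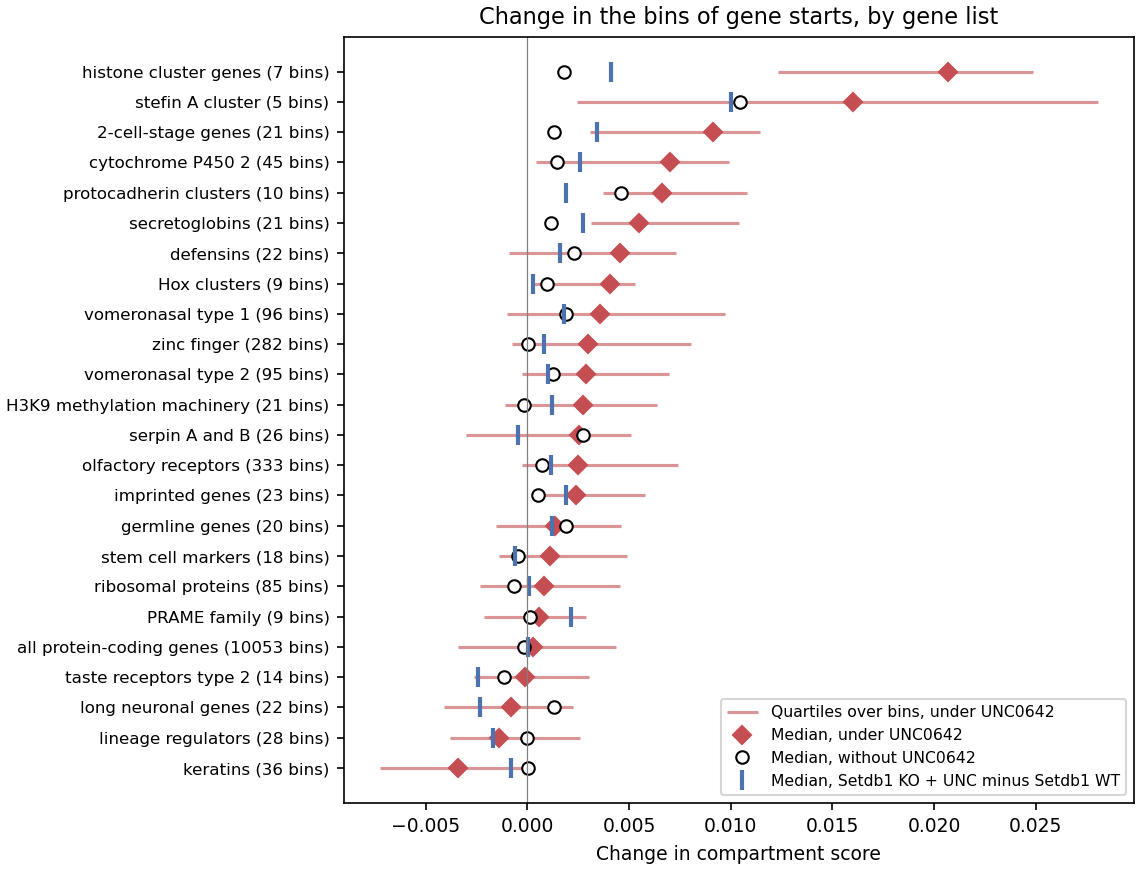
Median change in compartment score over the bins of each gene list under UNC0642 (red diamonds, with quartiles over bins as lines), without it (open circles) and for Setdb1 KO + UNC minus Setdb1 WT (blue ticks). Medians under UNC0642 run from -0.00344 for keratins to 0.0207 for the histone cluster, and those of the other comparisons lie nearer to 0 for most lists.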

How the data were processed

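Hi-C with the enzyme DpnII was made by the authors from mESCs of 8 groups, and the contact maps were processed with Juicer and the mm10 build per the labels. The authors deposited 1 compartment score (the first eigenvector of the correlation map, with A above 0) per 100-kb autosomal bin and group, with no read counts, so no depth per bin or interval from it could be given, and sex chromosomes were not analysed here. The sign of each chromosome was used as deposited. Squared scores summed to 0.832 to 0.993 per chromosome in both libraries, below the unit length of an eigenvector, so adding back the chromosome mean that this implies, or subtracting it once more, was an alternative. The change was the score in Setdb1 KO + UNC minus that in Setdb1 WT + UNC, with 0.01 as the size that counts. limma 3.58.1 in R 4.3.3 was fitted to all 8 libraries with terms for the line, SETDB1 loss, SUV39H1/2 loss and UNC0642, in place of a test of the pair, and its code was tested on simulated data. Regions were named by rule: the 5 longest runs each way, all runs and the 5 largest single falling bins repeated without UNC0642, and the 3 largest single changes each way, with up to 6 genes by position and other members of a cluster as examples. GC content and gene starts came from the reference genome of this build. Promoters and their sequences are those of RefSeq. The members, lists and thresholds were chosen with earlier results of these data known. Alternatives were another threshold, control, scaling, centring, bin size and base composition. Replicate Hi-C experiments were made in the study, but only 1 set of scores per group was analysed here, so no spread between replicates could be computed.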

Additional observations from a re-analysis of the deposited data

Results flagged for a closer look

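The longest falling runs at Ofcc1 (mean change -0.0159), at Atxn1 to Cap2 (-0.0164) and at Fars2, Nrn1 and F13a1 (-0.0177) had a mean of the opposite sign in the pair without UNC0642, which is why they are listed here. The same held for the list medians of keratins (-0.00344), ribosomal proteins (0.00081), the H3K9 methylation machinery (0.00275), long neuronal genes (-0.000829) and stem cell markers (0.00113) under UNC0642. Some values without UNC0642 lay near 0, as at Fars2, Nrn1 and F13a1 (0.000314) and for keratins (0.000039). Each pair is 1 set of scores a side, and the difference between the pairs was not tested.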

How the results depend on the processing

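The number of bins changing by at least 0.01 was 3107, that of compartment switches 1520 and that of changing bins repeated without UNC0642 167. Means over 500 kb, which leave fewer units, gave 352, 289 and 2. A threshold of 0.02 gave 415 changing bins and 2 repeated ones. Setdb1 WT as the control gave 634 changing bins and 858 switches. Removal of GC content moved the switches to 3122 and left 2859 changing and 162 repeated bins, and switches from a control score of at least 0.005 in size numbered 649. Removal of a 5.1-Mb running mean, chosen after seeing the data, gave 2044 changing and 91 repeated bins. Other scalings and centrings, bins scored in all 8 libraries and exchanged pairs kept these counts within 1.5 times. limma called 0 bins under all its settings. Of 154 recomputed list medians, 149 kept their sign, though 43 of these moved over 1.5 times (18 of 22 with Setdb1 WT as the control, 11 of 22 with the running mean removed), and 5 reversed: serpins A and B with Setdb1 WT as the control (-0.00044), taste receptors (0.000324) and the PRAME family (-0.000355) with an implied chromosome mean added, and the PRAME family (-0.000600) and lineage regulators (0.000772) with the running mean removed. Of 217 recomputed region means, 46 kept their sign but moved over 1.5 times, 29 of 31 with Setdb1 WT as the control and 17 of 31 with the running mean removed, as in the longest rising run (0.00531 and 0.00419 in place of 0.0226) and the longest falling run (-0.00547 and -0.00664 in place of -0.0212). The gene-free run on chromosome 18 reversed (-0.00304) with the running mean removed. The cause was not tested for any of these. Replicates could not be left out, with 1 set of scores a group. No paired analysis was possible because the labels number no replicates, although the UNC0642 term of the limma fit sets both SETDB1 pairs side by side, also within the Setdb1 line alone (lowest adjusted p 0.486 by limma). What depth limits could not be measured from scores alone.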
